A study of Mus musculus with 8 samples.

Results

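The collagen chain genes were taken as every array probe whose platform gene symbol consists of Col, a number, the letter a and a number, which gave 37 of the 16593 named genes and 59 of the 25697 probes. They were grouped by textbook knowledge into fibrillar chains (8 genes, 11 probes), chains of cartilage collagens (7 genes, 12 probes), chains of basement membranes and the zone next to them (10 genes, 18 probes) and other chains (12 genes, 18 probes). Gene expression in primary mouse limb bud cells (fore- and hindlimb, embryonic day 11.5) had been measured on 8 Illumina arrays. All cells, controls included, came from the strain labelled 129XB6-Sox4fl/fl11fl/fl, which carries floxed Sox4 and Sox11, members of the SoxC group of transcription factors. After 6 h in culture the cells were left untreated (Untreated, n = 2 arrays, labelled wild type) or were exposed for 24 h to an adenovirus that expressed LacZ (AdeLacZ, n = 3, labelled as treated control) or Cre recombinase (AdeCre, n = 3, labelled as treated mutant). No group received Cre without floxed alleles, and no culture time is given for Untreated cells. Effects of Cre itself and of the deletion therefore cannot be told apart, and neither can effects of the virus and of time in culture. The labels do not say whether replicates were separate cultures or litters. The p values therefore reflect the spread among arrays, which may be technical.

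Collagens are secreted proteins made of chains that wind around each other in a triple helix. Fibrillar collagens such as I, III and V form the fibres of skin, tendon and bone, collagens II, IX, X and XI belong to cartilage, and collagen IV forms the sheet of basement membranes. At this stage the limb bud consists of mesenchyme under a surface ectoderm, and the first cartilage condensations form in its core. Values are background-subtracted intensities on a linear scale as the authors deposited them. Changes are differences of log2 values after a normexp correction with an offset of 16, which shrinks the changes of dim probes, and are given ± the standard error of limma. A probe counted as above background on an array when it exceeded a detection floor of 8.87 to 8.93 intensity units. It was tested when it did so on at least 2 of 8 arrays. It is said to have risen or fallen where it passed a threshold of 0.05 on the p adjusted by Benjamini-Hochberg across the 15944 tested probes. In these bulk samples, fewer cells of a type and less RNA per cell cannot be told apart.

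Of the 59 collagen probes 24 were above the floor on all arrays, 20 on 2 to 7 arrays, 1 on a single array and 14 on none. This left 44 tested probes for 32 genes. The 5 genes without a tested probe were Col4a3, a chain of the basement membranes of kidney and lung, the cartilage chain gene Col9a3, Col6a6, the transmembrane collagen gene Col13a1 and Col28a1. A probe that was tested because it was bright in a single group had to differ between groups, so the counts below describe the tested probes and not the family. Where a gene had several probes, the brightest stands for it. In the 10 genes with several tested probes, the signs of the changes agreed among a gene's probes for 6 genes in AdeCre against AdeLacZ, 5 in AdeLacZ against Untreated and 8 in AdeCre against Untreated.

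The labels were checked on Sox4, whose probe read 68.5 and 111 in Untreated cells, 66.5, 75.9 and 78.1 in AdeLacZ cells and 10.9, 11.8 and 12.9 in AdeCre cells. No probe with the symbol Sox11 was tested, so the check covers Sox4 alone. All 8 limb mesenchyme markers, among them the transcription factor genes Prrx1 and Tbx5, were above the floor on all 8 arrays. Their summed intensity was 2413 to 2432 in Untreated, 1992 to 2092 in AdeLacZ and 1743 to 2022 in AdeCre cells. Lhx9 and Hand2 of this list fell in AdeCre against AdeLacZ cells (-0.53 and -0.47). Markers of other cell types also differed between the groups. Skeletal muscle markers summed to 22226 to 23707 in Untreated, 25802 to 28225 in AdeLacZ and 30526 to 32296 in AdeCre cells. Most of this sum came from Tnnc1, Acta1, Actc1 and Mylpf. In AdeCre against AdeLacZ cells 6 of the 8 tested markers had a positive change. The transcription factor genes Myod1 (-0.23) and Myog (-0.19) did not and did not pass, and Myf5, Pax3 and Pax7 were not tested. Macrophage markers summed to 1444 to 1539, then 1045 to 1200, then 914 to 979. Most of this sum came from Laptm5. That gene gave 0.01 in AdeLacZ against Untreated and -0.28 in AdeCre against AdeLacZ cells, neither past the threshold. In AdeCre against Untreated cells 6 of 10 macrophage markers fell, where 7.08% of all tested probes did. Fcer1g among them was not above the floor on any virus array and was tested only through its Untreated values, so its fall followed from the filter. Erythroid markers summed to 6126 to 7245, then 4206 to 4760, then 1349 to 1921, and the embryonic globin gene Hbb-y fell by 1.46 in AdeCre against AdeLacZ cells. Most of the erythroid sum came from Hbb-y and the globin gene Hba-a1. The part of these differences in the collagen values was not tested. Both Untreated arrays differed from each other in the collagen genes. Of the 24 collagen probes above the floor on all arrays, 20 (83.3%) were higher on Untreated replicate 2 than on Untreated replicate 1, against 49.2% of the 12060 probes of the whole array that met the same condition. Untreated replicate 2 was more than 1.5 times Untreated replicate 1 for 6 of the 24 collagen probes and for 5.38% of all such probes. Gaps in the other direction are not part of these counts. They belonged to Col6a2 (2.24-fold), Col7a1 (2.22-fold), the dimmer probe of Col2a1 (2.22-fold), the dimmer probe of Col18a1 (2.17-fold), Col1a1 (1.86-fold) and Col4a5 (1.51-fold). For 18 of the 24 probes the value of Untreated replicate 2 was intermediate between that of Untreated replicate 1 and the AdeLacZ mean, as it was for 5283 of the 12060. The summed intensity of 12 interferon-response genes moved in the same order, at 459 and 1935 on the Untreated arrays and 6578 to 8685 on the AdeLacZ arrays, and its part in the collagen values was not tested. Without Untreated replicate 1, 9 of the 44 tested collagen probes changed sign in AdeLacZ against Untreated cells and 7 in AdeCre against Untreated cells. Without Untreated replicate 2, 5 and 7 of 43 did. Values without an Untreated array are given below for the genes whose call or size depended on it.

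**Figure D1:**
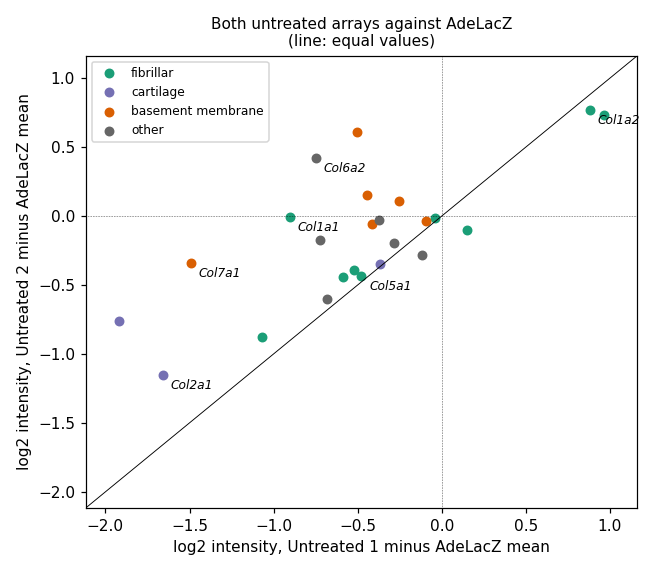
Log2 intensity of each collagen probe above the floor on all 8 arrays, on Untreated replicate 1 (x axis) and Untreated replicate 2 (y axis), both relative to the mean of the 3 AdeLacZ arrays. Most of the 24 points (20) lie above the line of equal values, and Col1a2 lies at the upper right, higher on both Untreated arrays than in AdeLacZ cells.

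AdeCre cells were set against AdeLacZ cells to ask what changed with Cre while both groups carried virus. Col1a2, which encodes the alpha 2 chain of collagen I, was the only collagen probe that passed. It rose 1.67-fold (log2 0.74 ± 0.10, adjusted p = 0.00372 in limma). The Col1a2 probe (ILMN_1253806) read 228 and 210 in Untreated cells, 134, 118 and 120 in AdeLacZ cells and 231, 212 and 235 in AdeCre cells. Every AdeLacZ array thus lay below all other arrays, and the AdeCre arrays overlapped with the Untreated arrays. Against Untreated cells Col1a2 fell by 0.70 ± 0.11 in AdeLacZ cells (1.62-fold, adjusted p = 0.00472). In AdeCre against Untreated cells the difference was 0.04 ± 0.11 (95% interval -0.20 to 0.28, adjusted p = 0.86). The low AdeLacZ values enter both passing comparisons, so these are not independent of each other. The rise passed in all 8 fits that left out an array and in all 10 other settings. The fall in AdeLacZ cells passed in all but 1 of these 18 fits, which was that without Untreated replicate 1 (-0.65, adjusted p = 0.0633).

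Col1a1, which encodes the alpha 1 chain of the same collagen, did not follow this pattern. Its probe read 1665 and 3092 in Untreated cells, 2848, 3540 and 2943 in AdeLacZ cells and 3797, 3227 and 3648 in AdeCre cells. AdeLacZ and Untreated arrays overlapped, and the change there was 0.44 ± 0.22 (adjusted p = 0.275). It was 0.00 without Untreated replicate 1 and 0.88 without Untreated replicate 2, the latter past the threshold (adjusted p = 0.0203). In AdeCre against AdeLacZ cells it was 0.20 ± 0.19 (95% interval -0.23 to 0.62). The log2 ratio of Col1a2 to Col1a1 on each array changed by -1.14 between AdeLacZ and Untreated cells and by 0.54 between AdeCre and AdeLacZ cells. In both cases the exact 2-sided permutation p was 0.1, the smallest this number of arrays can give (0.2 after adjustment over 12 chain-pair tests). Col3a1, the chain of collagen III, had a brighter probe that read 376 and 382 in Untreated, 400, 359 and 399 in AdeLacZ, and 371, 524 and 476 in AdeCre cells. Its dimmer probe read 76.9 and 65.5, then 54.3, 35.5 and 28.6, then 38.4, 63.2 and 63.8. On that dimmer probe the AdeLacZ arrays lay below both Untreated arrays (-0.56 ± 0.18, adjusted p = 0.105), but AdeLacZ and AdeCre arrays overlapped. On the brighter probe the AdeLacZ difference was 0.02 ± 0.14, so the probes of Col3a1 disagreed there.

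Over the whole family 1 of 44 tested collagen probes rose in AdeCre against AdeLacZ cells (2.27%) and 0 fell, where 1.59% of all tested probes rose and 3.44% fell (5.03% in either direction). The share of collagen probes that passed was thus not above that of the array. The median change was 0.08 over the collagen probes and 0.01 over all probes. The values of the groups did not overlap for 13 of the 44 (29.5%, 28.4% of all probes). At an unadjusted limma p under 0.05 there were 7 collagen probes, against 21.8% of all probes. By class, 9 of 10 fibrillar probes had a positive change (median 0.20), as did 5 of 10 cartilage probes (median -0.06), 5 of 12 basement membrane probes (median -0.05) and 8 of 12 others (median 0.04). Of all tested probes 52.0% were positive.

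**Figure D2:**
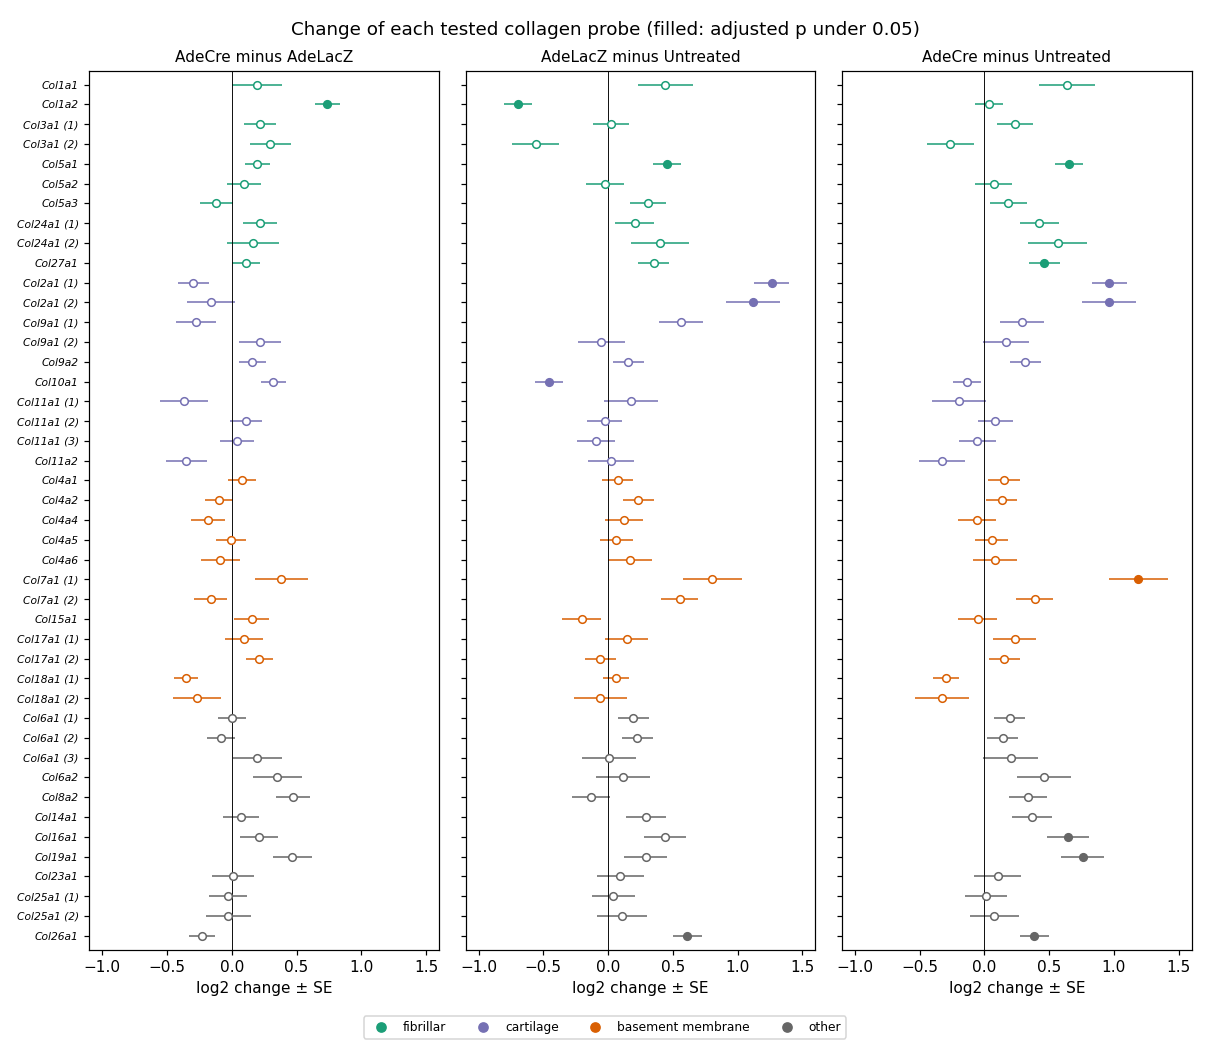
Log2 change ± SE of the 44 tested collagen probes in the 3 comparisons, coloured by class, with several probes of a gene numbered from the brightest. Filled points passed the threshold: 1 in AdeCre against AdeLacZ (Col1a2), 6 in AdeLacZ against Untreated and 8 in AdeCre against Untreated, where all 8 lie to the right of 0.

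Several single members came close in AdeCre against AdeLacZ cells. Col18a1, a basement membrane collagen whose end is released as endostatin, read 779 and 810 in Untreated, 810, 811 and 867 in AdeLacZ, and 654, 657 and 617 in AdeCre cells. All 3 AdeCre arrays lay below the other 5, with a change of -0.35 ± 0.09 and an adjusted p that lay just above the threshold. It passed in 5 of the 10 other settings and in none of the 8 fits without an array, and its dim second probe gave -0.27 ± 0.18. Col8a2, a chain of network-forming collagen VIII, read 10.3 and 5.72, then 4.04, 9.70 and 0.570, then 11.8, 18.4 and 24.0. It was above the floor on all 3 AdeCre arrays and 1 of 3 AdeLacZ arrays (0.47 ± 0.13, adjusted p = 0.0675). Col19a1, a fibril-associated type of chain, gave 0.47 ± 0.15 (adjusted p = 0.101), and Col10a1, the chain of hypertrophic cartilage, was at least 1.31-fold higher (adjusted p = 0.0853), since it was below the floor on all AdeLacZ arrays.

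Further members differed without overlap between both virus groups and did not pass. Col7a1, described below, gave 0.38 ± 0.20 (adjusted p = 0.31) and Col2a1 -0.30 ± 0.12. Col11a1, a chain of collagen XI, read 21.7, 13.7 and 11.4 in AdeLacZ and 10.1, 8.89 and a value below 0 in AdeCre cells (-0.37 ± 0.19, adjusted p = 0.281). Its dimmer probes gave 0.11 and 0.04. Col11a2 was below the floor on all AdeCre arrays (-0.35 ± 0.16, adjusted p = 0.236). Its AdeLacZ arrays, at 2.22, 14.5 and 13.8, overlapped with them.

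The collagen IV chains Col4a1 and Col4a2, which assemble together in basement membranes, read 2962 to 3162 and 1886 to 2064 in AdeLacZ cells. In AdeCre cells they read 3186 to 3318 and 1820 to 1899. Their changes were 0.08 ± 0.11 (95% interval -0.16 to 0.32) and -0.10 ± 0.11 (95% interval -0.34 to 0.14). Col6a1, a chain of the beaded filaments of collagen VI, gave 0.00 ± 0.11 on its brightest probe (95% interval -0.24 to 0.24). Its partner Col6a2 read 125, 121 and 132 in AdeLacZ and 180, 169 and 159 in AdeCre cells, without overlap (0.35 ± 0.19, adjusted p = 0.308). The Untreated arrays read 75.2 and 168, the former below every virus array. Col5a2, which pairs with Col5a1 in collagen V, gave 0.10 ± 0.13.

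AdeLacZ cells were set against Untreated cells to ask what changed with the virus. The cartilage chain gene Col2a1 rose most, 2.40-fold on its brighter probe (log2 1.26 ± 0.13, adjusted p = 0.00104) and 2.18-fold on its dimmer probe (1.12 ± 0.21, adjusted p = 0.0130). The brighter probe read 144 and 204 in Untreated cells, 477, 462 and 423 in AdeLacZ cells and 363, 357 and 371 in AdeCre cells. The dimmer probe read 73.5 and 163, then 265, 280 and 287, then 248, 265 and 224. On both probes the virus arrays lay above the Untreated arrays, and the AdeCre arrays lay between them and the AdeLacZ arrays. In AdeCre against AdeLacZ cells the brighter probe gave -0.30 ± 0.12 (adjusted p = 0.176) and the dimmer probe -0.16 ± 0.19. The rise on the dimmer probe was 0.67 without Untreated replicate 1 (adjusted p = 0.0603) and 1.57 without Untreated replicate 2. The rise on the brighter probe was 1.05 without Untreated replicate 1 and 1.48 without Untreated replicate 2, and it passed in all 18 other fits.

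Sox9, the transcription factor gene that drives Col2a1 in chondrocytes, rose as well (0.64 ± 0.13, adjusted p = 0.0221), from 67.1 and 81.5 in Untreated cells to 126, 140 and 130 in AdeLacZ cells. This call ended without Untreated replicate 1 (0.54, adjusted p = 0.194) or any AdeLacZ array. Of the 8 chondrocyte markers with a probe, 2 were above the floor on all arrays and 3 on none. The hyaluronan link protein gene Hapln1 and the matrilin gene Matn3 were among the latter. The aggrecan gene Acan read at most 12.5 on any array. The summed intensity of these markers was 108 to 126 in Untreated, 162 to 207 in AdeLacZ and 188 to 236 in AdeCre cells, and its part in the Col2a1 rise was not tested. Most of this sum came from Sox9 itself and the next largest part from Matn4, so it is not separate from the rise of Sox9. Other cartilage chains were dim. Col9a1, which coats collagen II fibrils, read 5.89 and 2.88 in Untreated and 18.3, 28.9 and 15.8 in AdeLacZ cells, at least 2.28-fold higher but not past the threshold (adjusted p = 0.088). Its other tested probe, above the floor on 2 of 8 arrays, gave -0.05 ± 0.18, so the probes of Col9a1 disagreed. Col9a2 gave 0.16 ± 0.12. Col11a1 and Col11a2, chains found inside collagen II fibrils, gave 0.17 ± 0.21 and 0.02 ± 0.18.

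Col10a1 read 13.7 and 17.9 in Untreated, 3.86, 5.55 and 1.10 in AdeLacZ, and 11.5, 12.9 and 10.6 in AdeCre cells. It was below the floor on all 3 AdeLacZ arrays and above it on the other 5, so its fall in AdeLacZ cells was at least 1.76-fold (adjusted p = 0.0371). As with Col1a2, the AdeLacZ arrays were the lowest, but these values are close to background. The call held in 1 of the 8 fits without an array, that without AdeCre replicate 3, and in 5 of 10 other settings, with adjusted p values up to 0.131.

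Col26a1 and Col5a1, the chain of collagen V that helps to start collagen I fibrils, rose too. Col26a1 read 577 and 611 in Untreated, 844, 920 and 1012 in AdeLacZ, and 766, 831 and 757 in AdeCre cells. Its rise was 0.61 ± 0.11 (1.53-fold, adjusted p = 0.0127), and it was not past the threshold without Untreated replicate 1 (adjusted p = 0.116) or AdeLacZ replicate 3 (adjusted p = 0.0507). Col5a1 read 3540 and 3645 in Untreated, 4822, 4915 and 5054 in AdeLacZ, and 5915, 5938 and 5147 in AdeCre cells. The groups formed 3 ascending steps without overlap. The rise of Col5a1 in AdeLacZ cells was 0.45 ± 0.11 (1.37-fold, adjusted p = 0.0372) and held in 2 of the 8 fits without an array, those without AdeCre replicates 1 or 3. It ended without either Untreated array, any AdeLacZ array or AdeCre replicate 2, with adjusted p values up to 0.205. Its partner Col5a2 read 142 and 119 in Untreated and 110, 137 and 136 in AdeLacZ cells, which overlapped.

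In this comparison 4 of 44 tested collagen probes rose (9.09%) and 2 fell, where 2.73% of all tested probes rose and 2.5% fell (5.23% in either direction). In AdeLacZ against Untreated cells 33 of the 44 changes were positive (75.0%, 48.8% of all probes), with a median of 0.13 (all probes -0.01). The groups did not overlap for 40.9% of the collagen probes and 38.4% of all probes. The counts of probes that rose or fell depended on which Untreated array was kept, as did the share of all probes that passed. Without Untreated replicate 1, 30 of the 44 changes were positive, with a median of 0.09 (all probes -0.001). Without Untreated replicate 2, 30 of 43 were, with a median of 0.22 (all probes -0.008). Without AdeLacZ replicate 3, 2 collagen probes rose. The number that fell was 1 in each fit without an AdeLacZ array or without AdeCre replicates 1 or 2.

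Col1a2 and Col5a1 are fibrillar chain genes that moved in opposite directions in AdeLacZ against Untreated cells, and Col7a1 had the largest rise in AdeCre against Untreated cells. The 250 bases upstream of their RefSeq gene starts are therefore shown, 5′ to 3′ on the strand of the gene, from assembly GRCm38.p6. They lie at chr6:4505368-4505617 (plus strand), chr2:27886175-27886424 (plus strand) and chr9:108953336-108953585 (plus strand). Capitals mark matches, on either strand, to the letters of 5 motifs. The motif known as the CCAAT box was searched by these same letters. The TATA box was searched as TATAAA, the GC box as GGGCGG, the core of SOX sites as ACAAAG, and the core of TEAD sites as GGAATG.
Col1a2: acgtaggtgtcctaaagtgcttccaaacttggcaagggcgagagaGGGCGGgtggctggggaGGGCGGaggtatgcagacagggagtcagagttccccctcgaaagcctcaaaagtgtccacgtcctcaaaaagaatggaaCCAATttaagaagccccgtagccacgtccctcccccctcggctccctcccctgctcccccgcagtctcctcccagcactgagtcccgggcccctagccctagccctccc
Col5a1: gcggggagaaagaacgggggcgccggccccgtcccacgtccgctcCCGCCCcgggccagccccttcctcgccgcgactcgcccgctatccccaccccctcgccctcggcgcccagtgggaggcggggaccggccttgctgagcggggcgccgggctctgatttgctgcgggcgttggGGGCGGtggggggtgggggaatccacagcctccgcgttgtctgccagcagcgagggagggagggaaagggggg
Col7a1: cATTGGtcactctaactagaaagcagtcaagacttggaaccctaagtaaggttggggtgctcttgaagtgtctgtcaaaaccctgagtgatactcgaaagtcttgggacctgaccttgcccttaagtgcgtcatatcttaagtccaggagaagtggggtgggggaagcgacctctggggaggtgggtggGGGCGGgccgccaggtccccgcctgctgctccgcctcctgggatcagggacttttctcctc
The Col1a2 window held 2 GC boxes, which start 205 and 188 bases before the gene start, and 1 CCAAT box 109 bases before it. The Col5a1 window held 2 GC boxes, 1 of them on the opposite strand, and no CCAAT box. The Col7a1 window held 1 GC box 61 bases before the start and 1 CCAAT box on the opposite strand 249 bases before it. Its share of G and C was 56.4%, against 62.0% for Col1a2 and 76.4% for Col5a1. Of 32851 RefSeq promoter windows of the same length, 32.7% held the GC box letters, 33.9% the CCAAT letters, 12.4% the TATA letters, 16.5% the SOX letters and 12.6% the TEAD letters. Entries matched 30 of the 37 collagen genes. No overlap between motifs occurred in the windows shown, and a match of letters describes the sequence only.

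**Figure D3:**
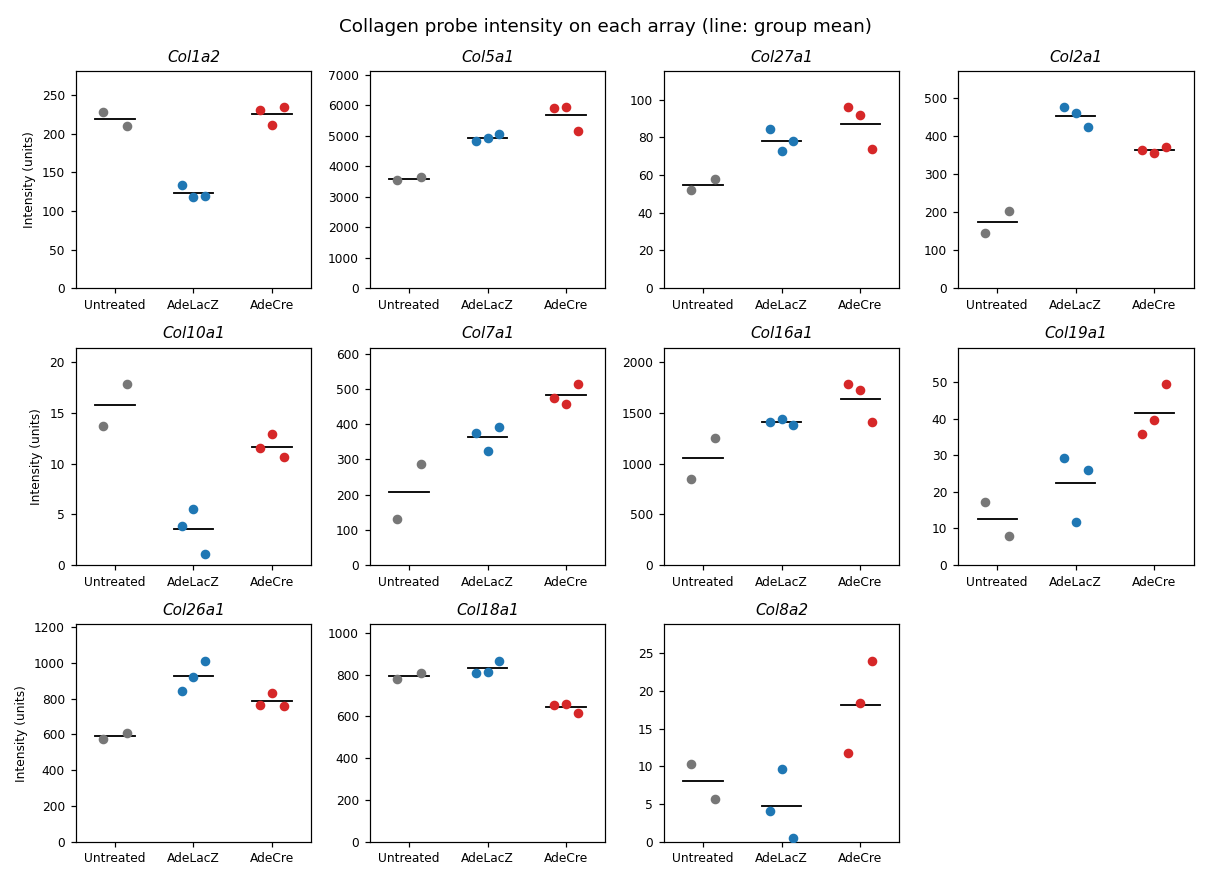
Intensity on each array (points) and group mean (line), on linear axes from 0, of the 11 collagen genes named by rule, each by its brightest probe. Col1a2 and Col10a1 are lowest in AdeLacZ cells, Col2a1 and Col26a1 are highest there, and Col5a1 and Col7a1 step up from Untreated over AdeLacZ to AdeCre cells.

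AdeCre cells were also set against Untreated cells, a comparison that shares arrays with both others and adds Cre, virus and any difference in time. In all, 7 genes rose and 0 fell. Col7a1, the chain of the anchoring fibrils that fasten the epidermis to the dermis, rose 2.28-fold (1.19 ± 0.23, adjusted p = 0.00752). It read 129 and 287 in Untreated, 374, 325 and 392 in AdeLacZ, and 475, 458 and 514 in AdeCre cells. The groups did not overlap, and Untreated replicate 1 was the lowest array. The rise was 0.69 without Untreated replicate 1 and 1.69 without Untreated replicate 2, and passed in both. In AdeLacZ against Untreated cells the same probe gave 0.81 ± 0.23 (adjusted p = 0.0699), with 0.31 and 1.30 without Untreated replicates 1 and 2, the latter past the threshold. A dim second probe of Col7a1 was below the floor on both Untreated arrays. It was at least 2.22-fold higher in AdeLacZ cells (adjusted p = 0.0501) and gave 0.39 ± 0.14 in AdeCre cells (adjusted p = 0.0969), neither past the threshold. Between the virus groups the probes disagreed in sign, at 0.38 ± 0.20 and -0.16 ± 0.13.

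Col7a1 is made by both epidermal and mesenchymal cells, so surface ectoderm markers are given beside it. Their summed intensity was 974 to 1014 in Untreated, 1003 to 1171 in AdeLacZ and 1385 to 1498 in AdeCre cells. Krt14, a keratin of basal epidermis, rose by 1.17 ± 0.14 in AdeCre against Untreated cells (adjusted p = 0.00109), and the simple-epithelium keratin genes Krt8 (1.01) and Krt18 (0.68) rose too. The claudin gene Cldn6 fell (-0.74, adjusted p = 0.0153), and Cdh1, the gene of E-cadherin, gave 0.03. Most of the sum came from Krt19, which read 632 and 640 in Untreated and 785 to 888 in AdeCre cells (0.36, adjusted p = 0.0776). The keratin gene Krt5 was not above the floor on any array. Of 13 such markers with a probe, 7 were above the floor on all arrays and 3 on none, and their part in the Col7a1 rise was not tested.

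Among fibrillar chains, Col5a1 rose 1.57-fold (0.65 ± 0.11, adjusted p = 0.00376) and passed in all 18 other fits. Col27a1, a fibrillar chain made in cartilage, rose by 0.46 ± 0.12 (adjusted p = 0.0277). It read 52.1 and 57.8 in Untreated, 84.4, 72.8 and 78.0 in AdeLacZ, and 96.2, 91.7 and 73.6 in AdeCre cells. The virus groups overlapped with each other and not with Untreated cells. Its call ended without either Untreated array or AdeCre replicates 1 or 2 (adjusted p up to 0.156). Col24a1, a related chain, gave 0.42 ± 0.15 (adjusted p = 0.0905), and Col1a1 gave 0.64 ± 0.22 (adjusted p = 0.0769). For Col1a1 this was 0.20 without Untreated replicate 1 and 1.08 without Untreated replicate 2, the latter past the threshold (adjusted p = 0.00609). Col2a1 was higher by 0.97 ± 0.13 (adjusted p = 0.00165) and 0.96 ± 0.21 (adjusted p = 0.0131) on its probes. The dimmer one gave 0.51 without Untreated replicate 1 (adjusted p = 0.0693) and 1.41 without Untreated replicate 2.

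Col16a1, a fibril-associated chain, rose by 0.65 ± 0.16 (1.56-fold, adjusted p = 0.0242). It read 851 and 1251 in Untreated, 1406, 1440 and 1377 in AdeLacZ, and 1787, 1725 and 1409 in AdeCre cells. The rise was 0.38 without Untreated replicate 1 (adjusted p = 0.206) and 0.92 without Untreated replicate 2, and it also ended without AdeCre replicates 1 (adjusted p = 0.0676) or 2 (adjusted p = 0.0680). Col19a1 read 17.2 and 7.99 in Untreated, 29.3, 11.7 and 26.1 in AdeLacZ, and 35.8, 39.5 and 49.5 in AdeCre cells. All AdeCre arrays lay above all others, and 1 of 2 Untreated arrays was below the floor. Col19a1 rose by 0.76 ± 0.17 (1.69-fold, adjusted p = 0.0142), which ended without Untreated replicate 2 (0.60, adjusted p = 0.0999). Col26a1 rose by 0.38 ± 0.11 (adjusted p = 0.0466), a call that ended with any array left out (adjusted p up to 0.206).

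In AdeCre against Untreated cells 8 of 44 tested collagen probes rose (18.2%) and 0 fell, where 6.61% of all tested probes rose and 7.08% fell (13.7% in either direction). At an unadjusted limma p under 0.05 there were 17, against 28.5% of all probes. Of the 44 changes 35 were positive (79.5%, 50.7% of all probes), and their median was 0.18 (all probes 0.00). All 12 probes of other chains, 9 of 10 fibrillar, 8 of 12 basement membrane and 6 of 10 cartilage probes were positive, with medians of 0.27, 0.33, 0.11 and 0.12. Without Untreated replicate 1, 32 of the 44 were positive, with a median of 0.17 (all probes 0.008). Without Untreated replicate 2, 31 of 43 were, with a median of 0.22 (all probes 0.003). The number that rose was 5 without AdeCre replicate 2. It also dropped without Untreated replicate 1, as did the number of all probes that passed. The groups did not overlap for 40.9% of the collagen probes and 43.3% of all probes, so by that measure the family was near the whole array. By direction, 15 collagen probes were higher without overlap (21.9% of all probes were) and 3 were lower (21.3%).

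The genes that fold, modify and assemble collagen chains were read beside them. Of 21 tested folding and modification genes, 0 rose and 1 fell in AdeCre against AdeLacZ cells, 2 rose and 0 fell in AdeLacZ against Untreated cells, and 7 rose and 2 fell in AdeCre against Untreated cells. As shares these were 4.76%, 9.52% and 42.9%, where 5.03%, 5.23% and 13.7% of all probes passed. In AdeCre against Untreated cells 0 rose and 1 fell without Untreated replicate 1, where 4.66% of all probes passed, and 6 rose and 2 fell without Untreated replicate 2. In the fit of all arrays P4ha1, the catalytic subunit of a prolyl 4-hydroxylase that stabilises the triple helix, rose by 0.72 ± 0.13. It read 40.7 and 52.8 in Untreated, 64.1, 68.4 and 86.1 in AdeLacZ, and 91.0, 97.7 and 100.1 in AdeCre cells, in ascending groups without overlap. The lysyl hydroxylase gene Plod1 (0.61 ± 0.14) and Creb3l1 (0.73 ± 0.14), a transcription factor gene of the secretory pathway, rose there too. Without Untreated replicate 1 these 3 genes gave 0.61, 0.58 and 0.68, none past the threshold (adjusted p from 0.0542 to 0.109), and Plod1 did not pass without Untreated replicate 2 either (adjusted p = 0.0565). Sec23a, a coat subunit of the vesicles that carry procollagen out of the endoplasmic reticulum, fell both against AdeLacZ (-0.57 ± 0.11, adjusted p = 0.0182) and against Untreated cells (-0.71 ± 0.12, adjusted p = 0.00468). The former call ended without AdeLacZ replicate 2 or AdeCre replicates 1 or 3 (adjusted p up to 0.0679). The median of the list was 0.22 in AdeCre against Untreated cells.

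Of 19 tested genes of processing, cross-linking and fibril partners, 0 rose and 3 fell in AdeLacZ against Untreated cells (15.8% in either direction, 5.23% of all probes). Without Untreated replicate 1 fewer of them passed, as did fewer of all probes. The 3 were the small proteoglycan genes Dcn (-1.79 ± 0.14) and Lum, whose products bind collagen fibrils, and Lox (-0.65 ± 0.12), the cross-linking lysyl oxidase. Lum read 42.5 and 28.7 in Untreated cells and was not above the floor on any virus array. It was thus tested only through its Untreated values, so its fall followed from the filter and adds no support to the counts. Dcn read 351 and 263 in Untreated, 74.7, 67.7 and 58.7 in AdeLacZ, and 67.1, 70.9 and 87.3 in AdeCre cells. Unlike Col1a2, Dcn thus stayed low in AdeCre cells (-1.68 ± 0.14 against Untreated, adjusted p = 1.76e-04). Lox did not pass without Untreated replicate 1 (adjusted p = 0.131). In AdeCre against Untreated cells 1 of these genes rose and 3 fell, Lum again among them (21.1%, 13.7% of all probes). Fewer passed there without Untreated replicate 1, as did fewer of all probes. In AdeCre against AdeLacZ cells 0 rose and 1 fell, the fibulin gene Fbln1 (-0.40 ± 0.10, adjusted p = 0.0397), whose call ended without any AdeLacZ or AdeCre array (adjusted p up to 0.122).

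Among 7 tested collagen receptors, the integrin gene Itga11, whose product binds fibrillar collagen, rose in AdeLacZ (1.09 ± 0.12, adjusted p = 0.00104) and in AdeCre cells (1.48 ± 0.12, adjusted p = 1.47e-04) against Untreated cells. It read 488 and 588 in Untreated, 1185, 1152 and 1181 in AdeLacZ, and 1459, 1675 and 1508 in AdeCre cells. This was 14.3% of the receptors in each comparison, where 5.23% and 13.7% of all probes passed. The share in AdeCre cells was thus near that of the array. No receptor passed in AdeCre against AdeLacZ cells, where 5.03% of all probes did. Of 14 tested regulators 0 passed in AdeCre against AdeLacZ cells. Against Untreated cells 3 rose and 1 fell in AdeLacZ cells, and 4 rose and 2 fell in AdeCre cells. These are 28.6% and 42.9% of the list, where 5.23% and 13.7% of all probes passed. All these regulator calls, in both comparisons, depended on Untreated replicate 1. Without it the number of all probes that passed dropped as well. In the fit of all arrays Sox9 and its partner Sox5 rose in both, and the mesenchymal factor gene Twist1 fell in both (-0.66 ± 0.13 and -0.53 ± 0.13). The growth factor gene Tgfb2 rose in both as well (0.46 ± 0.12 and 0.47 ± 0.12). Without Untreated replicate 1 Sox9 gave 0.54 and 0.53, Sox5 0.58 and 0.43, and Twist1 -0.60 and -0.47. The Sox5 call in AdeLacZ cells ended without AdeLacZ replicates 2 or 3. In AdeCre cells it ended without AdeLacZ replicate 3 or any AdeCre array. In AdeCre against Untreated cells Tgfb3 rose (0.49 ± 0.12) and the receptor gene Tgfbr1 fell (-0.50 ± 0.11). In AdeLacZ against Untreated cells they gave 0.31 ± 0.12 and -0.28 ± 0.11, neither past the threshold. Between the virus groups they gave 0.19 and -0.22 and did not pass either.

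Of 15 tested basement membrane genes other than collagens, 3 rose in AdeLacZ and 7 in AdeCre cells against Untreated cells, and 0 fell in either. Of all probes 2.73% and 6.61% rose in these comparisons. All of the rises in AdeCre cells and part of those in AdeLacZ cells depended on Untreated replicate 1. Without it fewer of all probes passed as well. The genes that rose with all arrays included the laminin chain gene Lama1 (1.09 ± 0.14 and 0.64 ± 0.14), the agrin gene Agrn (0.98 ± 0.17 and 0.85 ± 0.17) and the perlecan gene Hspg2 (0.69 ± 0.15 and 0.65 ± 0.15). Without Untreated replicate 1 Lama1 gave 0.85 and 0.40, Agrn 0.63 and 0.51, and Hspg2 0.43 and 0.39, of which the first alone passed. Untreated replicate 1 was the lowest array for all 3 genes. The collagen IV chains gave 0.07 ± 0.12 (Col4a1) and 0.23 ± 0.12 (Col4a2) in AdeLacZ and 0.15 ± 0.12 and 0.13 ± 0.12 in AdeCre cells against Untreated cells, and neither passed. In AdeCre against AdeLacZ cells 1 gene of this list fell, the peroxidasin gene Pxdn (-0.43 ± 0.10), whose product cross-links collagen IV. This call ended without any AdeLacZ or AdeCre array (adjusted p up to 0.124). Of 3 tested cartilage matrix genes other than collagens 1 rose there, where 1.59% of all probes rose. It was the matrilin gene Matn4 (0.65 ± 0.16), which passed in 1 of the 8 fits without an array (adjusted p up to 0.13). The other tested genes, Comp (-0.13) and Mia (-0.55), had negative changes and did not pass. Of the 14 such genes with a probe, 8 were above the floor on no array. Endothelial markers, which bear on basement membrane chains, summed to 1526 to 1629 in Untreated, 1545 to 1743 in AdeLacZ and 1859 to 1967 in AdeCre cells. Most of this sum came from Flt1, which rose in AdeCre against Untreated cells (0.45), as did Robo4 (0.60). Tek fell in AdeLacZ (-0.68) and AdeCre cells (-0.98) against Untreated cells, and Mmrn2 fell in AdeCre against AdeLacZ cells (-0.67). The defining endothelial gene Cdh5 was not above the floor on any array. Their part in the Col18a1 and collagen IV values was not tested.

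**Figure D4:**
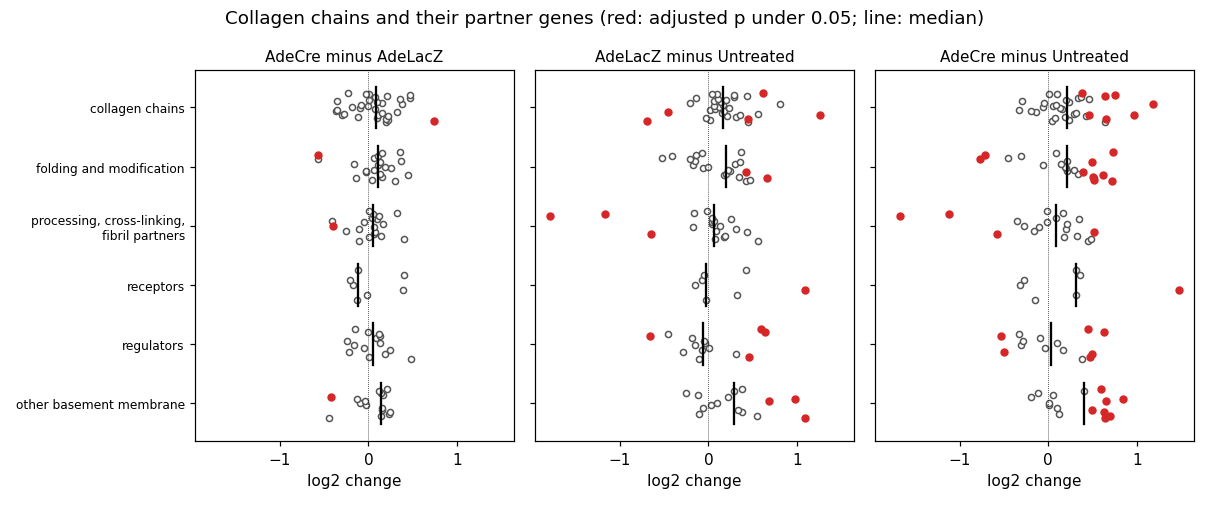
Log2 change of the tested collagen chain genes (brightest probe) and of 5 lists of partner genes in the 3 comparisons, with the median as a line and genes past the threshold in red. The collagen row has 1 red point in AdeCre against AdeLacZ. The folding row has 7 to the right and 2 to the left in AdeCre against Untreated cells, a count that dropped without Untreated replicate 1, as did that of all probes.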

How the data were processed

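RNA had been labelled with biotin and hybridised to Illumina bead arrays, per the labels' protocols, and BeadStudio 2.1 is named in the submitters' processing notes. The deposited intensity values were on a linear scale with background subtracted (25.7% below 0, highest 28571), and columns differed by at most 0.190 units at any rank, so the authors had put the arrays on a shared distribution. The method is not given in the sources used here. Another table, with 32 columns of per-sample values named by chip position, could not be tied to samples and was not used, so detection p values were not used either.

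The deposited intensities were corrected with normexp (offset 16) in limma 3.58.1 (R 4.3.3) and put on the log2 scale. Negative values mirrored around 0 gave each array's background SD, and the detection floor was its 0.95 quantile. Of 25697 probes 15944 (62.0%) were tested, and 14358 to 14385 probes per array lay above the floor. Precision is limited by the number of arrays, and changes had a median standard error of 0.12 in AdeCre against AdeLacZ and 0.13 in AdeLacZ against Untreated cells. One linear model (lmFit, eBayes) covered the 3 groups and 8 arrays (5 residual and 5.64 prior degrees of freedom). Tests were 2-sided, with Benjamini-Hochberg adjustment over all tested probes. Lower limits of a fold compare intensities, raised to the floor where below it, as means of log2 values. Of all probes 23978 carried 1 gene symbol, 1719 none and 0 several, and 23962 were matched to the reference gene table. The build behind the probes is not named. Promoter sequences came from RefSeq tables of GRCm38.p6.

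The members, classes and the 15 gene lists (221 entries) were chosen with earlier results of these data known. Named collagen genes were the 9 that passed in any comparison and the 2 of each class with the smallest p in AdeCre against AdeLacZ, 11 in all. Other members were described by role. Of each list up to 4 genes past the threshold could be named per comparison, except that all regulators that passed were named. Marker genes were named by their lack of signal or beside a member. Alternatives covered the offset, correction, normalization, filter, prior, array weights, replicate block, groups fitted, probe averaging and leaving out each array. Plots used Python 3.11.15 with matplotlib 3.10.9.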

Additional observations from a re-analysis of the deposited data

How the results depend on the processing

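Among 33 values of the 11 named collagen genes in 3 comparisons, 13 passed. Of these, 5 passed in all 18 alternatives (Col1a2 in AdeCre against AdeLacZ cells, Col2a1 in both comparisons with Untreated cells, and Col5a1 and Col7a1 in AdeCre against Untreated cells). Over the 234 alternatives of the 13, the call was lost in 50 and no direction changed. Among 360 alternatives of the 20 other values 16 passed. The 1 change of sign was Col1a2 in AdeCre against Untreated cells, -0.013 without Untreated replicate 2 and up to 0.089 without Untreated replicate 1, and it passed in no setting.

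In AdeCre against AdeLacZ cells, collagen probes that rose numbered 2 with the filter that asked for all arrays of a group and 3 with array weights. Collagen probes that fell numbered 1 with the offset of 50, cyclic loess, that filter, the trended robust prior and array weights, which was Col18a1. In AdeLacZ against Untreated cells 2 rose without normexp, and 1 fell without a filter, with the trended robust prior, with the replicate block and with only the 2 groups fitted. In AdeCre against Untreated cells 5 rose with only the 2 groups fitted, and 1 fell with the offset of 50 and with the trended robust prior. Leaving out 1 array, the number that rose was 1 to 1, 1 to 7 and 4 to 8 in the 3 comparisons in this order, and the number that fell was 0 to 0, 0 to 2 and 0 to 0.

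Over all probes, 802, 834 and 2183 passed in the 3 comparisons. In AdeCre against AdeLacZ cells 1420 passed with the offset of 50, 503 without normexp, 406 without a filter, 1432 with the trended robust prior and 498 with the replicate block. In AdeLacZ against Untreated cells the same settings gave 1440, 549, 486, 1500 and 442. Without 1 array the counts were 202 to 799, 167 to 864 and 732 to 2034. Same-numbered arrays did not deviate together (correlations of deviations from -0.14 to 0.02), so the numbers were not taken as pairs. The replicate block kept the call of Col1a2 in both its comparisons and lost Col5a1 (0.48, adjusted p = 0.0851) and Col10a1 (-0.42, adjusted p = 0.105) in AdeLacZ and Col26a1 (0.36, adjusted p = 0.114) in AdeCre against Untreated cells. Except for fewer probes or arrays entering the fit, the cause of these shifts was not tested. Where collagen probes lay near the floor, as for Col8a2, Col10a1 and Col19a1, the size of a change depended on the correction. The rise of Col19a1 in AdeCre against Untreated cells was 0.47 with the offset of 50 and 1.74 without normexp, and passed in both. Fits without an array for partner genes, Col1a1 and the dimmer Col2a1 probe were chosen after seeing the data.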
